A study of Mus musculus with 24 samples.

Results

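The comparison set 3 lateral septum libraries taken after 7 days of chronic social defeat stress (CSDS) against 3 age-matched unstressed control libraries of the same day. These are 6 of the 24 libraries of the study, which also covers 1, 4 and 10 days. All mice were male C57BL/6J, for which the labels give 8 to 14 weeks as the age of the samples and 8 weeks in the housing protocol. Mice were kept 5 to a cage. Each day, defeated mice met an aggressive CD-1 mouse for 10 min and were then kept from it by a plexiglass barrier, while controls lived under the same conditions without defeat. The labels give no transgene, drug or gene deletion in either group, and they do not state whether every library comes from its own animal, so p-values measure the spread between libraries. Of 28859 genes in the count table, 18060 passed the low-count filter and were tested.

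The lateral septum is a forebrain nucleus built mostly of GABAergic neurons, which receive hippocampal input and project to the hypothalamus. It is known for its part in aggression, anxiety and social behaviour. Repeated defeat is a common model of social stress in mice, and it is known for effects on stress hormones, on blood vessels of the brain and on immune cells from the bone marrow. The study's title concerns MANF, which is kept in and released from the endoplasmic reticulum (ER) and is made when protein folding there is disturbed.

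Total counts, to 6 significant digits, ran from 37987200 to 38860200 in day 7 CSDS libraries and from 35057300 to 38675500 in day 7 controls. Mitochondrial transcripts took 6.49% to 7.66% of counts in CSDS libraries and 6.43% to 7.07% in controls. The labelled tissue carried its markers in all 6 libraries: Gad1, which makes GABA, was at 159 to 204 FPKM, the GABA vesicle transporter Slc32a1 at 65.4 to 93.2 FPKM and Zic1, a septal transcription factor, at 72.1 to 93.6 FPKM. Neighbouring tissue varied from library to library. Ttr, the thyroid hormone carrier of the choroid plexus, was at 1929, 1999 and 144 FPKM in CSDS libraries and at 3.73, 10.8 and 2343 FPKM in controls. The glutamate transporter Slc17a7 of cortical and hippocampal neurons was at 66.2, 5.50 and 11.7 FPKM in CSDS libraries and at 94.6, 21.0 and 67.2 FPKM in controls. Libraries rich and poor in choroid plexus thus stood in both groups. The whole marker lists, summed per library as counts scaled to library size (CPM), ran from 613 to 4828 CPM in CSDS libraries and from 286 to 5480 CPM in controls for choroid plexus, and from 2572 to 2868 CPM in CSDS libraries and from 2812 to 3711 CPM in controls for cortical and hippocampal neurons. The first principal component of the 6 libraries held 36.2% of the variance and had CSDS and control libraries at both ends. In bulk tissue, fewer cells of a type and less RNA per cell cannot be told apart.

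**Figure D1:**
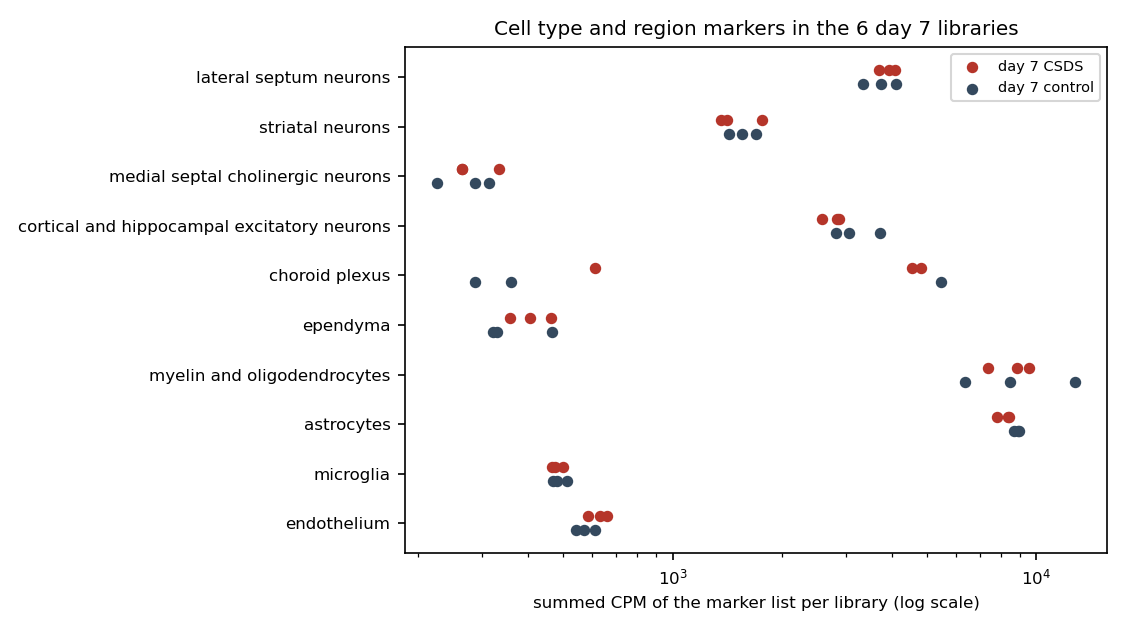
Summed CPM of cell type and region marker lists (horizontal log axis), 1 point per day 7 library, CSDS in red above control in dark blue. Lateral septum, microglial and endothelial lists lay close together in the 6 libraries, while the choroid plexus list ran from 286 to 5480 CPM. The astrocyte list ran from 7820 to 8403 CPM in CSDS libraries and from 8673 to 8938 CPM in controls, without overlap. Controls of the other days, which are not drawn, ran from 7851 to 10195 CPM.

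After 7 days of defeat a single gene passed the test. Tfrc, the transferrin receptor that takes iron-loaded transferrin into cells, rose in CSDS libraries. A group of blood vessel and blood cell transcripts, among them Vwf, Lrg1 and the haemoglobin chains, stood far apart between the groups without passing. Most listed kinases and factors of pre-mRNA splicing had higher values. Most heat shock and immediate early genes had lower ones. Again no member passed. By edgeR's quasi-likelihood test with Benjamini-Hochberg adjustment, 1 of 18060 genes was called at an adjusted p under 0.05, which is 0.00554% of genes tested. An unadjusted p under 0.05 was reached by 773 genes (4.28%), 381 of them higher (2.11%) and 392 lower (2.17%) in CSDS libraries. The share of 4.28% was no larger than a threshold of 0.05 lets through without any difference. All 3 CSDS libraries lay above all 3 day 7 controls for 894 genes (4.95%) and below them for 882 (4.88%). Shares of this size are also expected from a random order of the 6 libraries, so a lack of overlap is weak evidence for a single gene. For 190 genes (1.05%) they lay above all 12 control libraries of the 4 days, and for 131 (0.725%) below all 12, together 1.78% of genes. The same shares, above and below all 12 controls, were 1.01% and 0.415% for day 1 CSDS libraries, 0.687% and 0.963% for day 4 and 2.25% and 1.81% for day 10. Of all genes tested 50.8% had a log2 fold change above 0 and 49.2% below 0. Fold changes are given as log2 of CSDS over control with their standard error (SE). Among the 10067 genes with at least 10 CPM in controls the median SE was 0.0902. The counts for gene groups that follow are to be read against these shares of all genes. The lists were chosen with earlier results of these data known, so an excess over these shares is description and not support.

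**Figure D2:**
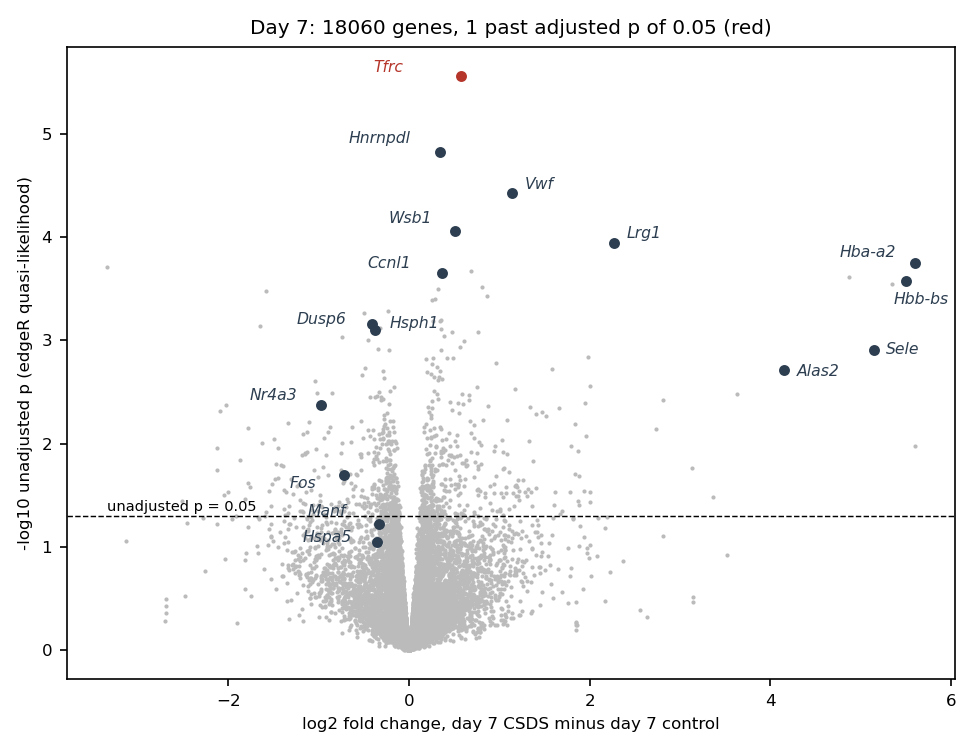
Each point is 1 of 18060 tested genes, with its log2 fold change, day 7 CSDS minus day 7 control, on the horizontal axis and -log10 of its unadjusted p on the vertical axis; the dashed line marks an unadjusted p of 0.05. Tfrc (red, 0.58) was the only gene past an adjusted p of 0.05, and the named genes in dark blue did not pass.

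Tfrc read 161, 153 and 162 CPM in CSDS libraries, against 108, 105 and 107 CPM in day 7 controls. Each CSDS library was higher than every control, and the replicates of each group lay within 10 CPM of each other. The means were 159 ± 4.92 CPM in CSDS libraries and 106.5 ± 1.70 CPM in controls (SD, n = 3 each), a 1.49-fold difference. The log2 fold change was 0.58 (SE 0.09, adjusted p = 0.0495, edgeR quasi-likelihood). The 3 CSDS libraries also lay above the 9 controls of the other days, which ran from 79.6 to 139 CPM. The call was narrow: with any of the 6 libraries left out, the fold change stayed between 0.56 and 0.60 while the adjusted p rose to between 0.111 and 0.515. With RLE size factors in place of TMM the adjusted p was 0.0535.

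Tfrc lies on chromosome 16. Its promoter is shown because it is the gene that passed. The 300 bases around the first of its 2 annotated starts, at chr16:32608646-32608945 on the plus strand, are from RefSeq on GRCm38.p6, an older build than the authors' GRCm39. Capitals mark ACGTG, searched on both strands, a pentamer known as the core of the hypoxia response element. It occurred in 27% of the 14024 tested genes with a promoter in the RefSeq table, so it is common.
Tfrc promoter: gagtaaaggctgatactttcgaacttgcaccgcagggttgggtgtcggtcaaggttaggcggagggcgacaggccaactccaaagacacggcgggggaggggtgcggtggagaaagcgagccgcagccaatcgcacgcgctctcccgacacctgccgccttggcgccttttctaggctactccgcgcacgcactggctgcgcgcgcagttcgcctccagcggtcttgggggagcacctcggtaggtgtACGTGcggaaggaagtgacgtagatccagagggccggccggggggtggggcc

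Other genes of iron handling gave no such difference. Of 28 tested members of a list for iron uptake, storage and export, 17 had higher and 11 lower values in CSDS libraries, with a median log2 fold change of 0.02 beside 0.00 for all genes. Tfrc was the only called member. At an unadjusted p under 0.05 stood Tfrc and Flvcr1, which exports haem. Flvcr1 read 19.9, 21.8 and 21.0 CPM in CSDS libraries and 15.9, 15.7 and 17.9 CPM in controls, without overlap (0.35, SE 0.09, adjusted p = 0.502). The iron exporter ferroportin, Slc40a1, read 9.83, 7.79 and 9.39 CPM in CSDS libraries and 7.49, 8.13 and 7.04 CPM in controls, and the groups overlapped. Log2 fold changes were 0.02 for the ferritin heavy chain Fth1, -0.10 for the ferritin light chain Ftl1, -0.01 for transferrin (Trf), 0.14 for the iron importer Slc11a2 and 0.48 for the second transferrin receptor Tfr2. The hepatic hormone gene Hamp had no count in any of the 6 libraries.

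Transcripts of red blood cells had far higher values in CSDS libraries, without passing the test. The list of blood and erythroid markers held 18 genes, of which 12 were tested. The other 6, among them Slc4a1 and Ahsp, fell under the count filter. Of the 12, 10 had higher values and 6 lay above all day 7 controls, 5 of them above all 12 controls, and the median log2 fold change was 2.85. None was called. The beta-globin gene Hbb-bs read 67.6, 45.5 and 49.5 CPM in CSDS libraries, against 0.240, 2.88 and 0.429 CPM in day 7 controls (5.50, SE 1.26, adjusted p = 0.398). The lowest CSDS library was many times above the highest control. Its partner chains read 12.7, 10.2 and 10.5 CPM in CSDS libraries against 0.0533, 0.575 and 0.172 CPM in controls for Hba-a1, and 11.1, 6.40 and 6.33 CPM against 0.187, 0.575 and 0.0286 CPM for Hbb-bt. Haemoglobin genes are near-identical copies whose reads can be split by the counting, so their single values are uncertain. Alas2, the erythroid enzyme of haem synthesis, has no such close copy and had 111, 96 and 94 counts in CSDS libraries against 1, 11 and 4 in controls (4.15, SE 1.17, adjusted p = 0.693). S100a9, a calcium-binding protein of neutrophils, had 22, 10 and 24 counts in CSDS libraries against 1, 1 and 2 in controls.

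The blood signal varied between libraries on the other days too. Hbb-bs ran from 0.227 to 20.2 CPM in controls of days 1, 4 and 10. Fech, the last enzyme of haem synthesis, which other tissues also make, did not follow the haemoglobins, with a log2 fold change of -0.04. The summed list, which holds such genes too, ran from 515 to 618 CPM in CSDS libraries and from 454 to 533 CPM in controls. Young red blood cells are known to carry Tfrc mRNA as well, so the values of both are set side by side. In day 4 CSDS libraries Tfrc read 130, 134 and 146 CPM and Hbb-bs 13.3, 12.0 and 3.49 CPM. In day 10 CSDS libraries Tfrc read 135, 115 and 126 CPM and Hbb-bs 1.10, 89.9 and 4.52 CPM. On day 7 every CSDS library lay above every day 7 control for both genes. On day 10 the CSDS library with the most Hbb-bs had the lowest Tfrc of its group. The part of blood cells in the day 7 Tfrc difference was not tested.

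Vwf and Lrg1 led the blood vessel genes. Vwf, the clotting factor carrier made by endothelium, read 33.3, 51.1 and 35.1 CPM in CSDS libraries and 16.6, 17.5 and 19.9 CPM in controls. All 3 CSDS libraries also lay above the other days' controls, which reached 28.9 CPM. The log2 fold change was 1.14 (SE 0.22, adjusted p = 0.227). Lrg1, a secreted protein of activated endothelium and the acute phase, read 1.32, 2.77 and 1.16 CPM in CSDS libraries and 0.213, 0.549 and 0.315 CPM in controls (2.27, SE 0.48, adjusted p = 0.398), again with the 3 CSDS libraries above all 12 controls. In both genes the second CSDS library was the highest. That library also held the most counts of the leukocyte adhesion molecules Sele and Selp. Sele had 17, 62 and 8 counts in CSDS libraries and 0, 1 and 1 in controls, and Selp had 14, 50 and 3 counts in CSDS libraries and 0, 5 and 2 in controls. Such low counts give Sele and Selp little weight on their own.

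In the whole list of activated vessel and acute phase genes, 15 of 20 tested members had higher values in CSDS libraries, with a median log2 fold change of 0.38. At an unadjusted p under 0.05 stood 7 higher and 1 lower, and none was called. The median was 0.63 without CSDS 3 and 0.14 with choroid plexus and cortical scores as covariates. The summed level ran from 125 to 185 CPM in CSDS libraries and from 99.0 to 123 CPM in controls. The cytokine receptor Osmr read 7.72, 7.98 and 6.56 CPM in CSDS libraries and 4.45, 4.99 and 5.21 CPM in controls (0.60, SE 0.19, adjusted p = 0.833). The interleukin-1 receptor Il1r1 read 6.12, 7.77 and 4.76 CPM in CSDS libraries and 3.17, 4.11 and 4.29 CPM in controls (0.69, SE 0.25). Both sets of libraries were without overlap. Apold1, an early response gene of endothelium, went the other way with 9.46, 7.12 and 7.54 CPM in CSDS libraries and 11.2, 12.6 and 10.8 CPM in controls (-0.52, SE 0.15, adjusted p = 0.712). General endothelial genes moved little. Among 20 endothelial markers 14 had higher values and the median was 0.06, with Vwf and the transporter Slco1a4 (0.25) at an unadjusted p under 0.05. Log2 fold changes were 0.06 for the tight junction gene Cldn5 and 0.01 for the endothelial adhesion gene Pecam1. Their summed level was 584 to 661 CPM in CSDS libraries and 543 to 614 CPM in controls.

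**Figure D3:**
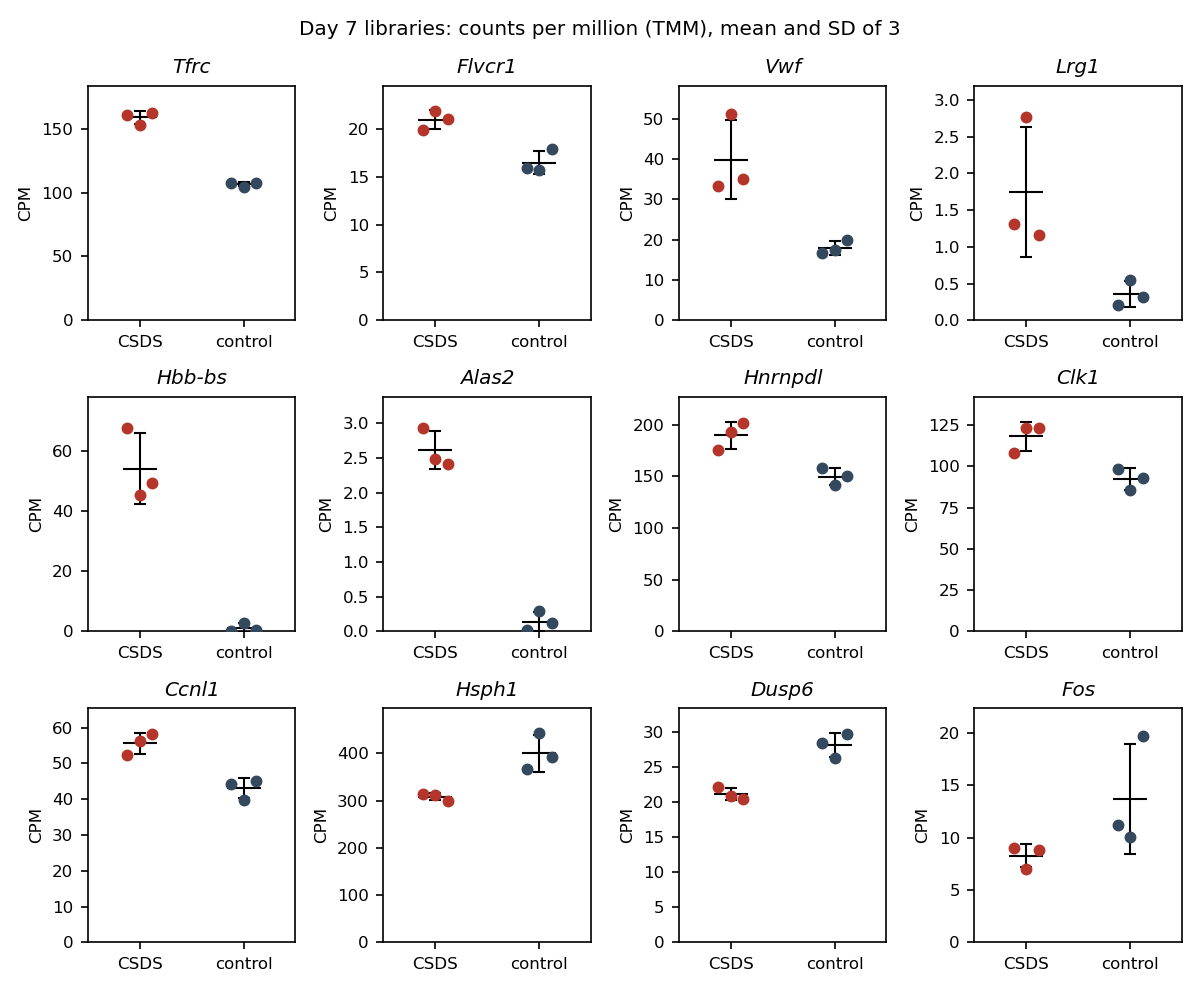
CPM of 12 genes in the day 7 libraries, CSDS (red) left of control (dark blue), each vertical axis starting at 0; points are libraries, and the black bar and whiskers are the mean and SD of 3. Tfrc read 153 to 162 CPM in CSDS libraries and 105 to 108 CPM in controls. The groups did not overlap in any of the 12 panels, which were chosen from the named genes.

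Most listed genes of RNA splicing had higher values in CSDS libraries. SR proteins bind exons and recruit the spliceosome, and the CLK kinases phosphorylate them in the nucleus. Of 32 members of a list of CLK and SRPK kinases, SR proteins and transcripts known to vary with them, 25 had higher values, against 50.8% of all genes. The 8 members at an unadjusted p under 0.05 were all higher, and 9 of 32 lay above all day 7 controls, against 4.95% of all genes. The median log2 fold change was 0.04, and none was called. It was 0.14 without CSDS 1, 0.0012 without CSDS 2, 0.090 without control 1 and 0.016 without control 3. The summed level overlapped between the groups, at 3864 to 4670 CPM in CSDS libraries and 4005 to 4268 CPM in controls. Clk1 read 108, 124 and 123 CPM in CSDS libraries and 98.4, 85.5 and 93.0 CPM in controls (0.36, SE 0.09, adjusted p = 0.502). Clk4, its close relative, had 0.36 (SE 0.10). Ccnl1, a cyclin that sits with the splicing machinery, read 52.4, 56.3 and 58.1 CPM in CSDS libraries and 44.3, 39.9 and 45.0 CPM in controls (0.37, SE 0.08, adjusted p = 0.398). The groups did not overlap in any of these genes. Srsf5, an SR protein, read 233, 263 and 246 CPM in CSDS libraries and 216, 198 and 208 CPM in controls (0.26, SE 0.06, adjusted p = 0.406). Wsb1, an E3 ubiquitin ligase adaptor and not itself a splicing factor, read 107, 132 and 133 CPM in CSDS libraries and 93.2, 81.0 and 86.2 CPM in controls (0.51, SE 0.11, adjusted p = 0.398). Against the controls of the other days the Clk1 and Clk4 values were not extreme, and those controls reached 127 CPM for Clk1. They reached 120 CPM for Wsb1 and 56.1 CPM for Ccnl1, above only the lowest CSDS library of each gene. For Srsf5 they reached 204 CPM, below every CSDS library.

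Hnrnpdl, an RNA-binding protein that also shapes its own splicing, had the second smallest p of all genes. It read 176, 193 and 202 CPM in CSDS libraries and 158, 141 and 150 CPM in controls (0.34, SE 0.06, adjusted p = 0.135). All 3 CSDS libraries stood above the day 7 controls, and the lowest was close to the highest control of the other days, at 176 CPM. Hnrnpdl belonged to a list of 14 RNA-binding proteins, some of which are known to be made in the cold, of which 11 had higher values, 5 higher and 1 lower stood at an unadjusted p under 0.05, and the median was 0.08. The cold-induced pair itself gave 46.8, 46.7 and 60.2 CPM in CSDS libraries and 53.3, 37.5 and 36.9 CPM in controls for Cirbp, and 46.7, 38.3 and 45.6 CPM against 42.9, 33.7 and 35.2 CPM for Rbm3. Both overlapped between the groups. The spliceosome subunit Sf3b1 had 365, 385 and 383 CPM in CSDS libraries and 336, 322 and 332 CPM in controls (0.19, SE 0.05, adjusted p = 0.628). Rbm14, a coactivator, was the lower member (-0.25, SE 0.09). Among the further genes with the smallest p were Rbm39, a splicing factor (0.29, SE 0.07), Thoc1 of the mRNA export complex (0.38, SE 0.10) and Rsrp1, an arginine and serine rich protein (0.35, SE 0.09), with adjusted p of 0.406, 0.520 and 0.502.

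Heat shock genes, most of which encode cytosolic chaperones or their cofactors and many of which are driven by the factor HSF1, leaned the other way. Of 33 members 29 had lower values in CSDS libraries, against 49.2% of all genes, with a median log2 fold change of -0.15, or -0.098 without control 2. At an unadjusted p under 0.05 stood 8 lower and 1 higher, and 9 of 33 lay below all day 7 controls, against 4.88% of all genes. None was called. Hsph1, a large chaperone that recharges HSP70, read 313, 312 and 300 CPM in CSDS libraries and 367, 444 and 391 CPM in controls (-0.38, SE 0.10, adjusted p = 0.502). Every CSDS library was also below the 9 controls of the other days, the lowest of which had 316 CPM. The HSP90 activator Ahsa1 read 104, 98.7 and 102 CPM in CSDS libraries and 113, 131 and 124 CPM in controls (-0.27, SE 0.09, adjusted p = 0.905). Stip1, which hands clients over to HSP90, read 232, 228 and 217 CPM in CSDS libraries and 244, 301 and 265 CPM in controls (-0.26, SE 0.09, adjusted p = 0.982). Control 2 was highest in all these genes, and the groups did not overlap. The lowest control of the other days had 222 CPM for Stip1, within the CSDS range, and 118 CPM for Ahsa1, above it. The small heat shock gene Hspb1 read 4.53, 4.87 and 4.60 CPM in CSDS libraries and 6.08, 6.46 and 7.64 CPM in controls (-0.53, SE 0.23). Log2 fold changes were -0.17 (SE 0.07) for Hsp90ab1, -0.17 (SE 0.08) for Hspa8 and -0.86 (SE 0.39) for the inducible Hspa1b, which has a near-identical copy in Hspa1a (-0.42, SE 0.32), so that reads may be split between them. The higher member was Hsf2, a heat shock transcription factor (0.20, SE 0.08).

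The promoter of Hsph1 is shown as that of the heat shock gene with the smallest p. The heat shock element was searched on both strands as the triplets TTC, GAA and TTC in this order with 2 bases of any kind between neighbours. It was found in the promoters of 4 of the 27 heat shock genes with an entry (14.8%) and in 78 of 14024 tested genes (0.556%). The 4 were Chordc1, Hspd1, Hspe1 and Hsph1, and Hspd1 and Hspe1 share 1 stretch between their starts at chr1:55088059-55088076. Their log2 fold changes were -0.20, -0.16, -0.21 and -0.38, with unadjusted p of 0.190, 0.138, 0.134 and 0.000801 by edgeR's quasi-likelihood test. Only Hsph1 was thus under 0.05. The promoters of Stip1, Ahsa1 and Dnajb1 had no match. Whether the element bears on the lower values was not tested. The Hsph1 promoter shown, of the first of its 2 annotated starts, is at chr5:149636287-149636586 on the minus strand (RefSeq, GRCm38.p6). Capitals mark its match, which begins at position 37 counted from that start base.
Hsph1 promoter: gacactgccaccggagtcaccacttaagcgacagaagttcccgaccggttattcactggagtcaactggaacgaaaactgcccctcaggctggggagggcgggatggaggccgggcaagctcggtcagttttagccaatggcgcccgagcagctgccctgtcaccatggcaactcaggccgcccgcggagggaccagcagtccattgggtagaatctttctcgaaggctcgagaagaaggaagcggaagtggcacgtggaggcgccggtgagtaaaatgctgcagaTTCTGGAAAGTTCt

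ER chaperones and genes of ER-associated degradation had 29 of 47 members with lower values in CSDS libraries, and the median was -0.04. At an unadjusted p under 0.05 stood 7 lower and 1 higher, and none was called. Below all day 7 controls lay 7 members and above them 1, against 4.88% and 4.95% of all genes, and 4 lay below all 12 controls, against 0.725%. The median was -0.12 without control 1, -0.091 without CSDS 1, -0.11 without CSDS 2 and -0.11 with choroid plexus and cortical scores as covariates. Manf read 39.1, 36.5 and 37.9 CPM in CSDS libraries and 43.5, 47.5 and 52.3 CPM in day 7 controls (-0.34, SE 0.17, adjusted p = 0.999). The groups did not overlap, and controls of the other days ran from 45.8 to 99.4 CPM, above all 3 CSDS libraries. Its paralog Cdnf, at 1.45, 1.55 and 1.59 CPM in CSDS libraries and 1.04, 1.65 and 1.49 CPM in controls, overlapped. The central ER chaperone BiP, Hspa5, read 312, 322 and 255 CPM in CSDS libraries and 310, 410 and 410 CPM in controls (-0.35, SE 0.20). The first control lay within the CSDS range. Calreticulin, Calr, a calcium-binding chaperone of glycoproteins, read 458, 457 and 409 CPM in CSDS libraries and 481, 554 and 597 CPM in controls (-0.30, SE 0.11, adjusted p = 0.999). For Calr the lowest control of the other days had 406 CPM, below all 3 CSDS libraries. The lower members with an unadjusted p under 0.05 also included Creld1 (-0.24), the degradation adaptor Sel1l (-0.15), the disulphide isomerase Pdia6 (-0.32) and the BiP cofactors Sdf2l1 (-0.55) and Dnajb11 (-0.28). The ER reductase Dnajc10 was the higher member (0.16). Xbp1, a transcription factor of the unfolded protein response, had -0.13 (SE 0.11) and Creld2 -0.14 (SE 0.17).

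The integrated stress response, the programme of the factor ATF4, showed little. Of 24 tested members 20 had lower values, but the median was -0.06 (-0.11 without control 1) and only Atf3 (-1.02, SE 0.31) and the cystine transporter Slc7a11 (-0.22, SE 0.10) stood at an unadjusted p under 0.05. Atf3 was low throughout, at 0.316, 0.259 and 0.746 CPM in CSDS libraries and 0.880, 0.758 and 1.06 CPM in controls. Atf4 itself read 123, 112 and 121 CPM in CSDS libraries and 124, 126 and 117 CPM in controls, and Ddit3, its target CHOP, gave -0.05 (SE 0.11). In both the groups overlapped.

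**Figure D4:**
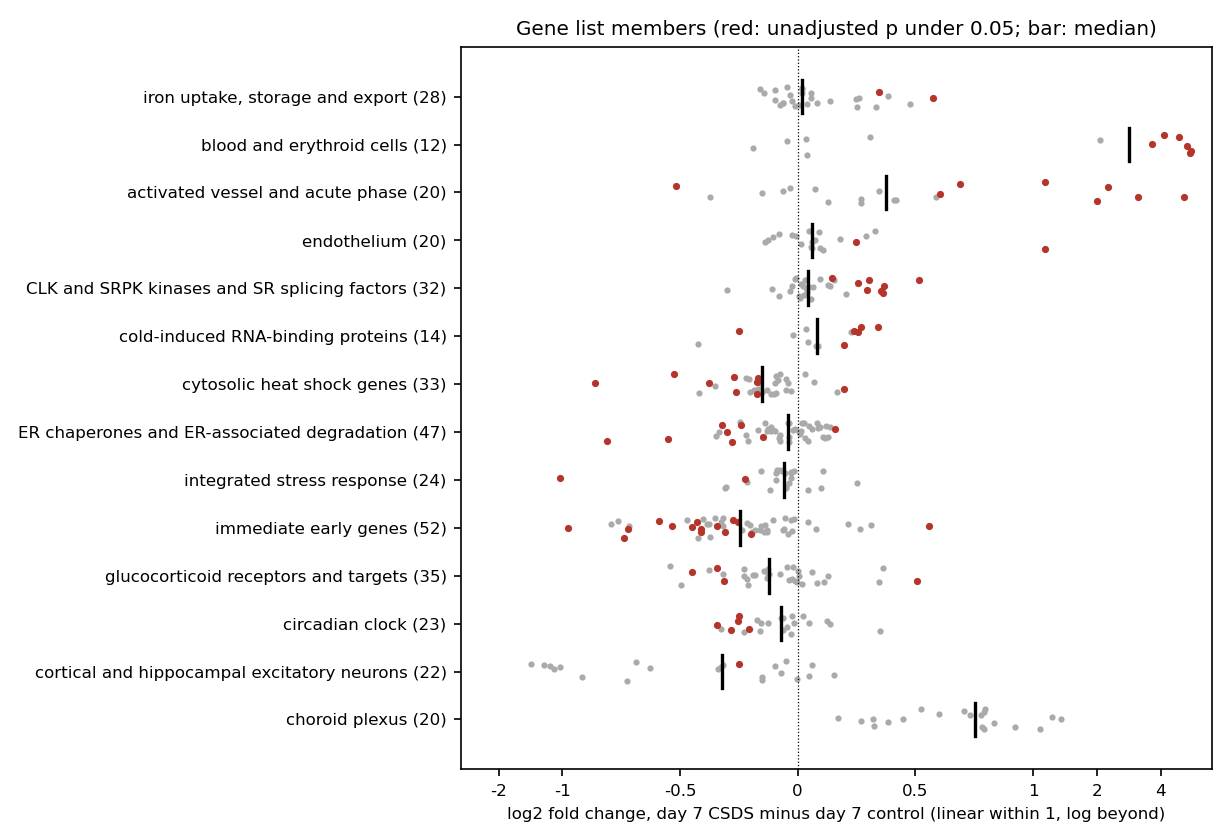
Log2 fold change, day 7 CSDS minus day 7 control, of every tested member of 14 gene lists (horizontal axis, linear within 1 and logarithmic beyond), 1 point per gene, red at an unadjusted p under 0.05, with the median as a black bar and the number tested in brackets. Heat shock and immediate early genes lay mostly below 0 (medians -0.15 and -0.25), and the choroid plexus list lay above 0 throughout with no red point.

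Immediate early genes are switched on within minutes of neuronal activity. After 7 days of defeat 46 of 52 had lower values in CSDS libraries, with a median log2 fold change of -0.25. At an unadjusted p under 0.05 stood 14 lower and 1 higher, and 16 of 52 lay below all day 7 controls, against 4.88% of all genes. None was called. Dusp6, a phosphatase that limits ERK signalling, read 22.1, 20.9 and 20.4 CPM in CSDS libraries and 28.4, 26.2 and 29.7 CPM in controls (-0.41, SE 0.10, adjusted p = 0.502). The stress sensor Gadd45g read 7.99, 8.57 and 8.08 CPM in CSDS libraries and 10.3, 11.8 and 11.5 CPM in controls (-0.45, SE 0.12, adjusted p = 0.534). Nr4a3, an orphan nuclear receptor, read 14.4, 8.13 and 8.98 CPM in CSDS libraries and 27.4, 16.6 and 17.7 CPM in controls (-0.97, SE 0.30, adjusted p = 0.833). The groups were separate in all of these. Fos read 8.99, 7.04 and 8.82 CPM in CSDS libraries and 11.2, 10.1 and 19.7 CPM in controls (-0.72, SE 0.29, adjusted p = 0.999). The third control was well above the others. Controls of the other days ran from 6.77 to 56.3 CPM for Fos, and the day 7 CSDS values were not below them. Egr1, a zinc finger factor, read 114, 113 and 121 CPM in CSDS libraries and 146, 136 and 139 CPM in controls (-0.27, SE 0.12). Arc (-0.21, SE 0.16) and Npas4 (-0.47, SE 0.39), both tied closely to synaptic activity, did not reach an unadjusted p of 0.05.

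The lower members were not limited to transcription factors. Vgf, a neuropeptide precursor, had -0.31 (SE 0.09) and the kinase scaffold Trib1 -0.43 (SE 0.13). Etv5, a transcription factor known to follow ERK signalling and not on the list, read 60.2, 62.4 and 61.8 CPM in CSDS libraries and 81.2, 79.8 and 72.9 CPM in controls (-0.34, SE 0.09, adjusted p = 0.580). The higher member was Ier3, with 5.75, 7.12 and 5.94 CPM in CSDS libraries and 4.61, 4.71 and 3.46 CPM in controls (0.56, SE 0.18). Summed over the list, immediate early genes ran from 1731 to 1896 CPM in CSDS libraries and from 1994 to 2154 CPM in controls. Cortical and hippocampal neuron markers also leaned lower in CSDS libraries, with 19 of 22 lower and a median of -0.32, or -0.18 without control 1 and -0.56 without CSDS 1. Their part in the immediate early values was not tested. With choroid plexus and cortical scores as covariates, the median of the immediate early list was -0.11.

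Glucocorticoid receptors and their targets gave no joint rise. Of 35 members 25 had lower values and the median was -0.12, or -0.046 without control 3 and -0.071 without CSDS 3. At an unadjusted p under 0.05 stood 3 lower and 1 higher, Ctla2a, a protease inhibitor-like gene (0.51, SE 0.18). Fkbp5, a chaperone cofactor widely used as a readout of corticosteroid action, read 48.8, 49.9 and 48.0 CPM in CSDS libraries and 48.1, 47.4 and 53.0 CPM in controls, with full overlap. Tsc22d3, the leucine zipper GILZ, read 69.5, 63.1 and 63.9 CPM in CSDS libraries and 75.0, 74.7 and 94.6 CPM in controls (-0.31, SE 0.14, adjusted p = 0.999). The salt-regulated kinase Sgk1 was scattered, at 40.9, 56.1 and 36.5 CPM in CSDS libraries and 75.3, 41.0 and 78.1 CPM in controls. Clock genes leaned slightly lower, with 18 of 23 below 0 and a median of -0.07 (-0.12 without control 3 and without CSDS 3). The 5 at an unadjusted p under 0.05 were all lower: Per1 (-0.34), Hlf (-0.28), Rorb (-0.25), Nfil3 (-0.25) and Bhlhe40 (-0.21). Per1 read 47.6, 53.2 and 57.0 CPM in CSDS libraries and 78.9, 63.0 and 58.5 CPM in controls. It is on both lists and on the immediate early list. Nfil3 is also on the immediate early list, and Gadd45g is on the glucocorticoid list, so these lists are not independent. The clock output factor Dbp overlapped between the groups (-0.17, SE 0.12).

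Outside these lists, the lower genes with the smallest p included Rps6kc1, a kinase-like protein, at 36.7, 38.3 and 36.4 CPM in CSDS libraries and 42.9, 45.9 and 42.2 CPM in controls, and Fam20a, a pseudokinase of the secretory pathway, at 10.2, 10.4 and 11.3 CPM against 14.3, 13.0 and 17.8 CPM. Their adjusted p was 0.491 for each. Mlec, an ER lectin that binds new glycoproteins, read 153 CPM in each CSDS library and 164, 195 and 173 CPM in controls (-0.21, SE 0.06, adjusted p = 0.580). Higher ones included the chemokine Ccl28, at 4.80, 6.08 and 6.51 CPM in CSDS libraries and 3.31, 3.11 and 3.52 CPM in controls (0.81, SE 0.19), and Clec2d, a lectin recognised by natural killer cells (0.69, SE 0.15). Each had an adjusted p of 0.398. The groups did not overlap in any of these 5 genes, which was a condition for naming them and not a result.

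Several programmes often examined after social stress had few or no members at an unadjusted p under 0.05. Of 30 interferon response genes 15 had higher and 15 lower values, and none reached an unadjusted p of 0.05. Nor did any of 76 nuclear genes of oxidative phosphorylation (50 lower, median -0.02) or 13 mitochondrially encoded genes (4 lower). The same held for 35 proteasome genes (14 lower) and 27 genes of cholesterol synthesis (19 lower, median -0.04). Among 18 tested inflammation genes the chemokine Cxcl12 was higher (0.28, SE 0.08) and the inflammasome gene Nlrp3 lower (-0.75, SE 0.35). Nlrp3 was low and overlapped, at 0.501, 0.363 and 0.566 CPM in CSDS libraries and 0.480, 0.654 and 1.29 CPM in controls. A further 10 genes, among them Il1b, Il6 and Tnf, fell under the count filter. Of 20 microglial markers only Ptprc, the pan-leukocyte marker CD45, stood at an unadjusted p under 0.05 (0.54, SE 0.23). Neuropeptides of the septum and receptors for stress and social peptides gave few differences at an unadjusted p under 0.05. Lower values were found for 18 of 23 tested neuropeptides (median -0.09) and 19 of 29 tested receptors (median -0.04). The bombesin-like peptide Nmb (0.63, SE 0.24) and the corticotropin-releasing hormone receptor Crhr1 (0.39, SE 0.16) were higher, and the somatostatin receptor Sstr2 was lower (-0.27, SE 0.11), each with an adjusted p of 0.999. Among lateral septum markers only Lhx2, a LIM homeobox factor, reached an unadjusted p of 0.05, with 28.1, 28.7 and 34.3 CPM in CSDS libraries and 40.8, 38.9 and 35.6 CPM in controls (-0.34, SE 0.12). The division markers Mki67 (-0.64, SE 0.26) and Top2a (-0.62, SE 0.26) were lower, while all 20 choroid plexus markers were higher (median 0.76, but 0.21 without control 1 or 2 and 3.46 without control 3) with none at an unadjusted p under 0.05.

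Whether the day 7 response differed from that of other days was tested on the difference itself. Against the mean response of days 1, 4 and 10, edgeR called 0 genes, with 587 (3.25%) at an unadjusted p under 0.05, and DESeq2 also called 0. The smallest adjusted p was 0.460, shared by Clk1, Rsrp1 and the 2 low-level genes Ppp3r2 and Kif14. The day 7 response lay 0.51 above that mean for Clk1 and 0.50 for Rsrp1. Clk1 differed by -0.07, -0.16 and -0.23 on days 1, 4 and 10, and its level was much lower on day 10 in both groups. Against day 4 alone edgeR again called 0 genes, with 833 (4.61%) at an unadjusted p under 0.05. The smallest adjusted p there was for Dnajb1, an HSP40 chaperone (day 7 response 0.73 above that of day 4, adjusted p = 0.202), which had a log2 fold change of -0.18 on day 7 and -0.91 on day 4. DESeq2 called Dnajb1 in that comparison (0.72, adjusted p = 0.00763).

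Each day has its own controls, so the daily values can be set side by side. For Tfrc the log2 fold changes on days 1, 4, 7 and 10 were -0.12, 0.57, 0.58 and 0.56, and for Vwf 0.22, 1.25, 1.14 and 0.82. Both were near 0 or small on day 1 and alike in size from day 4 on, and the day 7 response of Tfrc did not pass against the other days (0.24 above their mean, adjusted p = 1.00). Hsph1 had 0.18, -0.40, -0.38 and -0.60, and Manf 0.42, -0.34, -0.34 and -0.68. Fos had -1.43, -1.19, -0.72 and 0.40. Over the 18060 genes, day 7 fold changes had Spearman correlations of 0.13, 0.051 and -0.043 with those of days 1, 4 and 10. These are descriptions across genes, which are not independent, and shared tissue composition enters them. The count of called genes was 1, 20, 1 and 30 on days 1, 4, 7 and 10, and the share at an unadjusted p under 0.05 was 7.88%, 8.33%, 4.28% and 12.8%, so day 7 had the smallest share.

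**Figure D5:**
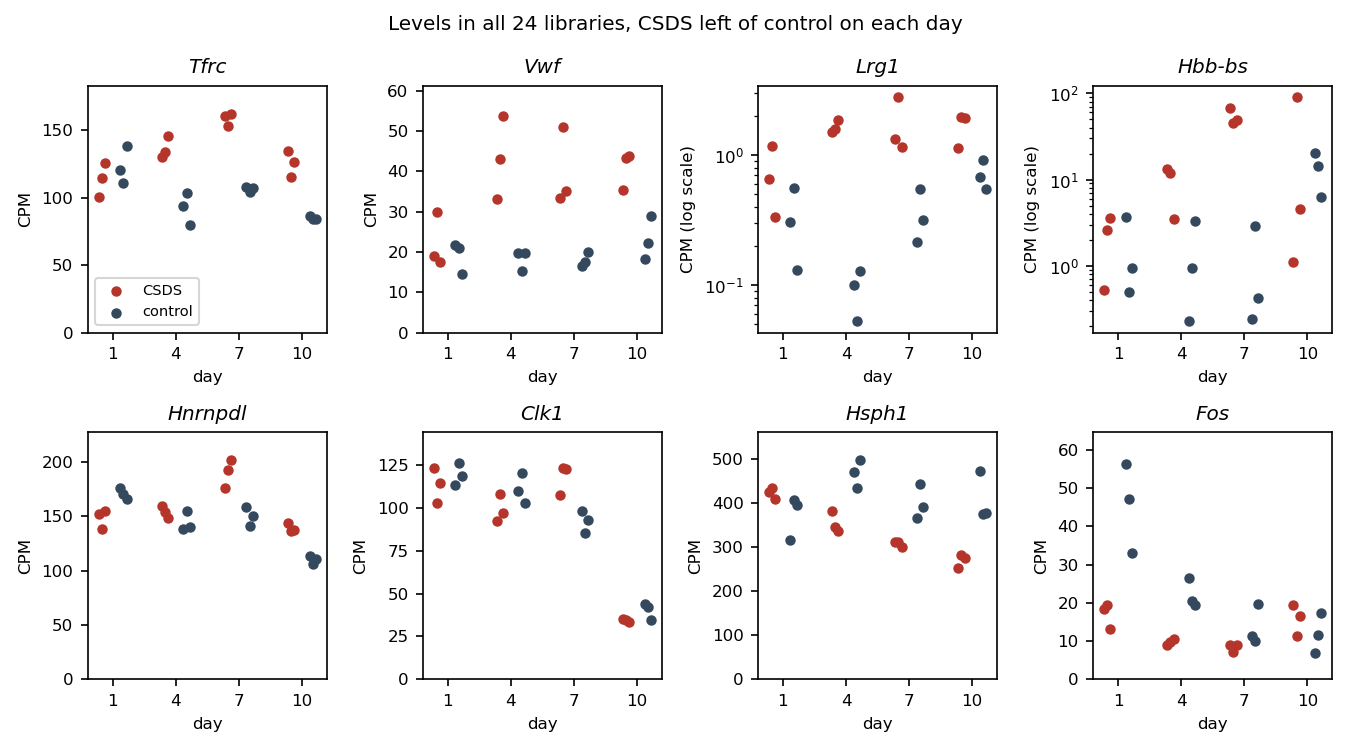
CPM of 8 genes in all 24 libraries by day of defeat, CSDS (red) left of control (dark blue) on each day, 1 point per library; vertical axes start at 0 except for Lrg1 and Hbb-bs, which are on log scales. On day 7 the 3 Tfrc points of CSDS libraries lay above all 12 control points, and Clk1 was lowest in both groups on day 10.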

How the data were processed

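RNA of lateral septum was sequenced as directional poly(A) libraries in 150 bp read pairs, per the labels' protocols. Per the submitters' processing notes, the tools were fastp, HISAT2 and HTSeq (versions not given in the sources used here) on GRCm39. The authors deposited read counts of genes as whole numbers, and FPKM beside them. For 27139 genes the deposited FPKM matched the counts with 1 fixed length per gene. The text uses FPKM for levels between genes and for 2 alternative fits.

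The count analysis used edgeR 4.0.16 under R 4.3.3: filterByExpr by group left 18060 of 28859 genes, TMM scaled the libraries, and 1 quasi-likelihood model was fitted to the 8 group means of all 24 libraries, leaving 16 residual degrees of freedom, to which the fit added a prior of 5.14. All 24 libraries entered so that the groups share 1 estimate of the spread. P-values are two-sided and Benjamini-Hochberg adjusted over all genes tested, with calls at an adjusted p under 0.05. The SE was obtained from each log2 fold change and its F value. CPM were scaled by TMM. The script was tested on simulated data.

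Gene lists (34 lists, 896 entries, 894 of them in the table) were described by counts and medians without a set test. The lists and the rule for naming genes were chosen with earlier results of these data known. The rule named called genes, up to 12 higher and 12 lower genes by p and up to 5 each by fold change (groups without overlap, at least 1 CPM in the higher group), up to 4 members per list by p among those at an unadjusted p under 0.05, fixed list members, and 10 genes for the comparison with other days. Genes named outside it were chosen after their values were seen. Samples are from the labels. Promoter sequences are RefSeq's on GRCm38.p6, and 14024 tested genes had one. Alternatives were DESeq2 1.42.0, RLE size factors, no filter, day 7 libraries alone, a stricter filter (1 CPM or more in 3 libraries), replicate numbers as a block, choroid plexus and cortical scores as covariates, limma 3.58.1 on log2 FPKM (pseudocounts of 1 and 0.1, genes reaching 0.5 FPKM in 3 libraries), and each of the 6 day 7 libraries left out in turn. RLE for the position against all controls was added after seeing the data. Some members of the lists are not reported here.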

Additional observations from a re-analysis of the deposited data

How the results depend on the processing

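The call on day 7 depended on the processing. Against 1 called gene (Tfrc), RLE size factors gave 0 (Tfrc at an adjusted p of 0.0535), DESeq2 gave 9, no filter gave 2 (Tfrc and Vwf) and day 7 libraries alone gave 6 (Tfrc, Alas2, Hba-a1, Hba-a2, Hbb-bs and Hbb-bt). The stricter filter, the covariates and limma on FPKM each called Tfrc and no other gene. Leaving out each of the 6 day 7 libraries in turn gave 0 to 0 calls, with Tfrc between 0.56 and 0.60 and an adjusted p between 0.111 and 0.515. The 9 of DESeq2 were Tfrc, Vwf, Hnrnpdl, Wsb1, Lrg1, Hba-a1, Hbb-bs, Hbb-bt and, lower, Ahsg, which had 0 counts in the CSDS libraries and 1, 0 and 1 in controls. With the replicate number as a block, 0 genes were called and Tfrc had an adjusted p of 0.123. Deviations from the group mean in same-numbered libraries had correlations of -0.083, -0.076 and -0.42. These deviations also carry the tissue taken, so the values cannot show whether replicate numbers mark a shared cage or day. Against day 4, DESeq2 called 1 gene and edgeR 0. The cause of these differences was not tested.

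Of 340 list medians under alternatives, 10 moved by more than 1 SD of the list's mean level between replicates, a wide tolerance for lists that vary with the tissue taken. The blood list (2.85) had 3.62 with day 7 libraries alone, 2.06 with the covariates, and 2.23 to 3.68 with a library left out. Left-out libraries gave -0.11 to -0.050 for the integrated stress response, -0.041 to 0.039 for the proteasome, 0.21 to 3.46 for choroid plexus and -0.12 to -0.0086 for microglia, which had 0.030 with the covariates. Within that tolerance, the covariates gave 0.030 for cortical neurons (-0.32), -0.084 for choroid plexus (0.76), 0.14 for activated vessel genes (0.38), -0.11 for immediate early genes (-0.25) and -0.11 for ER genes (-0.04). The first 2 lists supplied the scores that were fitted. The block gave 1.70 for choroid plexus. With a library left out, cortical neurons ran from -0.56 to -0.18, activated vessel genes from 0.26 to 0.63 and glucocorticoid genes from -0.17 to -0.046. Of 1606 values of named genes under alternatives, 1563 kept direction and side of the threshold, and 22 changed sign, none with an adjusted p under 0.05. These were Atf4 (0.011), Ddit3 (0.013), Cdnf (-0.11), Fkbp5 (0.029) and Fth1 (-0.041) with the covariates, Fkbp5 (0.0022 and 0.0025) and Trf (0.060 and 0.061) with limma on FPKM, Trf with the block (0.046), and, over the runs with a library left out, Cdnf (-0.043 to 0.28), Ddit3 (-0.16 to 0.039), Drd2 (-0.19 to 0.040), Fam214a (-0.0073 to 0.13), Fkbp5 (-0.051 to 0.034), Fth1 (-0.081 to 0.18), Mbp (-0.40 to 0.13) and Trf (-0.23 to 0.32). With 3 libraries a group, the median SE of 0.0902 among genes of at least 10 CPM limits what could be called, and counts of a few reads, as for Sele, limit it further.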

Other observations

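Some genes with the largest fold changes on day 7 were of low level and stood outside the lists above. Trp63, a transcription factor of basal epithelia, read 0.738, 0.958 and 0.566 CPM in CSDS libraries and 1.23, 1.41 and 2.23 CPM in controls (-1.10, SE 0.36, adjusted p = 0.971, edgeR quasi-likelihood). Cdca2, a mitotic phosphatase adaptor, read 0.606, 0.570 and 0.720 CPM in CSDS libraries and 0.906, 1.20 and 1.54 CPM in controls (-0.94, SE 0.33). The groups did not overlap in either gene, which was again a condition for naming them. Among oligodendrocyte precursor genes, Gpr17, a receptor of cells about to make myelin, read 83.5, 74.2 and 78.5 CPM in CSDS libraries and 82.2, 104 and 112 CPM in controls (-0.33, SE 0.10, adjusted p = 0.810), with overlap. The astrocyte gap junction gene Gjb6 read 52.3, 58.6 and 57.5 CPM in CSDS libraries and 64.2, 73.6 and 66.0 CPM in controls (-0.28, SE 0.09, adjusted p = 0.982), without overlap. Of 18 astrocyte markers 14 had lower values, with a median of -0.09 (-0.14 without control 1), beside 49.2% lower over all genes tested. Below all day 7 controls lay 5 of the 18, against 4.88% of all genes. The summed list ran from 7820 to 8403 CPM in CSDS libraries and from 8673 to 8938 CPM in day 7 controls, without overlap. Controls of the other days ran from 7851 to 10195 CPM, a range that held all but the lowest day 7 CSDS library.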
